A study of Mus musculus with 42 samples.

Results

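Transcript levels were compared between mouse embryos injected with a morpholino against Nanog and embryos injected with a control morpholino, both collected 20 h after injection. The comparison takes 6 of the series' 42 Affymetrix arrays, 3 for each group, chosen by time, injection and experiment in the sample titles, and covers every gene on the array. The embryos, of the B6D2F1 strain, had been injected as 1-cell zygotes, and all groups were cultured in human tubal fluid medium with serum supplement. The control morpholino was designed against a sequence found in neither the mouse genome nor its transcripts. The same experiment also held uninjected embryos at 20 h and all 3 treatments at 44 h, again with 3 arrays each, for 18 arrays in total. Titles call the arrays of a group biological replicates. The sources used here do not give the number of embryos pooled for an array. The p-values cover only the array-to-array spread within groups.

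Nanog is a homeodomain transcription factor that works with Oct4 (gene symbol Pou5f1) and Sox2 in the pluripotency network. In the blastocyst it marks the epiblast and is known for its opposition to primitive endoderm fate. During the first cleavages the embryo degrades maternal transcripts and starts its own transcription. A morpholino is an antisense oligomer that blocks translation or splicing and does not by itself destroy its target mRNA. Which of these actions the Nanog oligomer has is not stated in the labels, and the arrays do not measure the protein.

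The 6 arrays had median intensities of 197 to 221, and none stood apart from the other arrays of the Nanog experiment (193 to 227). Pearson correlations of log2 values were 0.928 to 0.937 between Nanog morpholino replicates, 0.936 to 0.944 between control morpholino replicates and 0.926 to 0.935 between arrays of the 2 groups. Levels below are intensities as deposited, on a linear scale, given for replicates 1, 2 and 3 in that order. Changes are differences of log2(intensity + 16), Nanog minus control morpholino, with their standard error (SE). A gene passed the test at a limma p-value below 0.05 after Benjamini-Hochberg adjustment over 15478 tested genes, in a fit of all 42 arrays. Precision is limited by how few arrays there are, and an exact permutation test of 3 arrays against 3 cannot give a two-sided p below 0.1. Among transcripts of the early embryo and oocyte, Dppa3, an oocyte and germ cell factor, read 9874 to 10315 in the control group. Btg4, a maternal mRNA decay factor, read 12081 to 13343. Both were named for a high control level within their gene lists, so their brightness is no check of the stage.

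The Nanog mRNA itself was below the array median on all 6 injected arrays at 20 h. It read 39.7, 103.4 and 191.0 with the control morpholino and 46.9, 58.6 and 144.3 with the Nanog morpholino, so the 2 groups overlapped (log2 -0.29, SE 0.53, limma adjusted p = 1.00). Uninjected embryos read 137.8, 433.4 and 418.8, and 2 of these arrays lay above all injected ones, with neither injected group past the test against them (adjusted p = 0.153 for the Nanog morpholino and 0.492 for the control). Nanog is represented by 1 probe set on this array. By 44 h its mRNA was at 3718 to 3939 with the control morpholino and at 3086, 1412 and 3562 with the Nanog morpholino. The level at 20 h therefore gives no check of the injection.

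The partners of Nanog were already abundant and similar in both groups. Pou5f1 read 5294, 4769 and 5261 with the control and 5473, 5236 and 6409 with the Nanog morpholino (log2 0.16, SE 0.19). Sall4, a zinc finger factor of the same network, read 8773, 6984 and 8176 against 8094, 7782 and 9123 (log2 0.07, SE 0.19), and its second probe set differed by 0.07. Sox2 read 1209, 910 and 1806 against 1831, 601 and 1420 (log2 -0.11, SE 0.44). In each of these 3 genes the groups overlapped, and the adjusted p was 1.00 in limma.

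**Figure D1:**
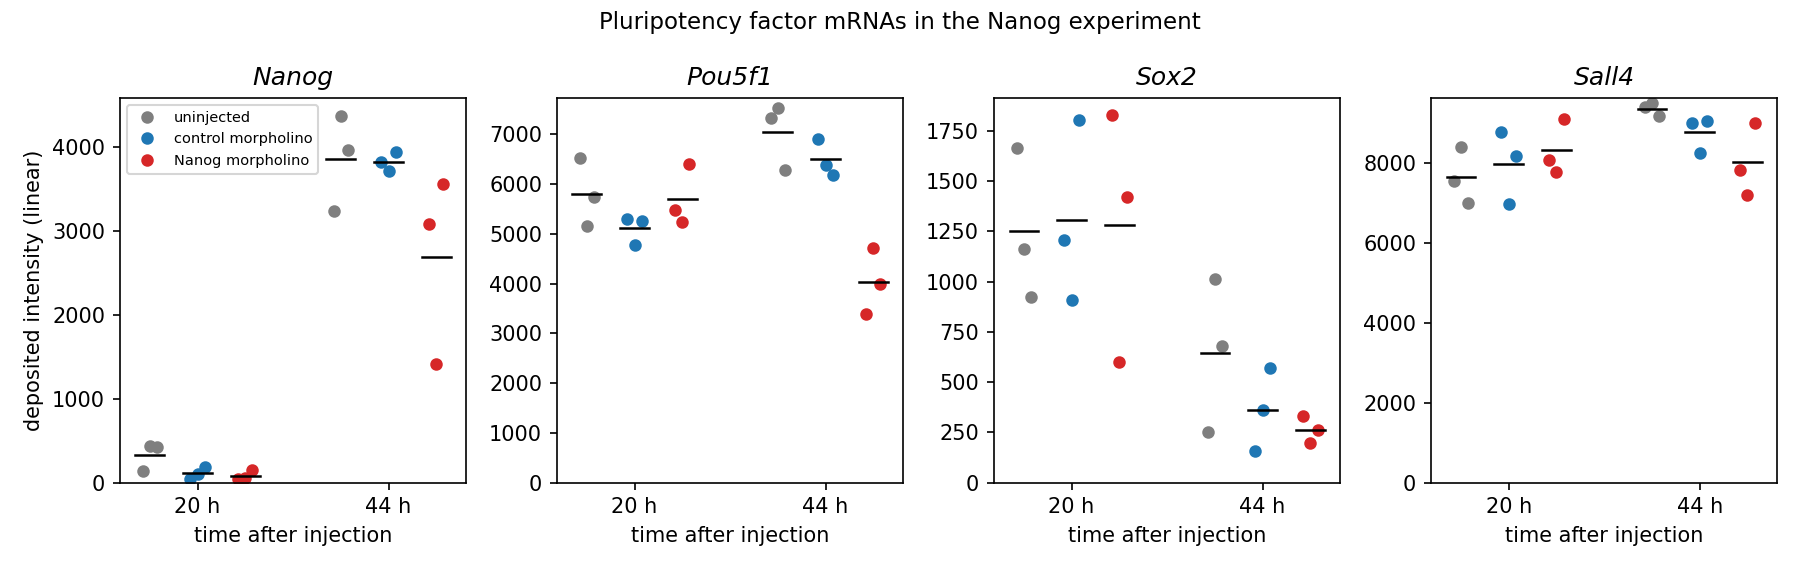
Deposited intensity (linear axis) of Nanog, Pou5f1, Sox2 and Sall4 on the 18 arrays of the Nanog experiment, by time after injection. Points are arrays and black lines are means over n = 3. At 20 h the Nanog mRNA is below 200 on all injected arrays, while Pou5f1 is between 4769 and 6534 on the 9 arrays of that time, uninjected ones included.

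At 20 h, 96 of the 15478 tested genes passed, which is 0.620% of them. Of these, 36 were higher with the Nanog morpholino (0.233% of tested genes) and 60 were lower (0.388%). At an unadjusted p under 0.05 there were 1221 genes (7.89%). The 3 Nanog morpholino arrays lay entirely above or below the 3 control arrays in 93 of the 96 and in 13.6% of all tested genes. Because the 96 were chosen by a small p on these same arrays, their separation largely follows from the choice. The genes that fell had a median level of 1572 in control and 376 in Nanog morpholino embryos, and those that rose 178 and 905, against a control median of 604 over all tested genes. A gene called lower has the higher control level by the way it is chosen, so these levels describe the calls and are not a finding about them. Falls ran from -0.80 to -4.55 on the log2 scale with a median of -2.01, and rises from 1.14 to 3.61 with a median of 2.18, while the median change of all tested genes was -0.02.

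The count rested on arrays outside the comparison, which supply most of the estimate of spread. With the 18 arrays of the Nanog experiment alone, 25 of 15343 tested genes passed (0.163%), 20 lower and 5 higher, and 17 of them were among the 96. The 9 arrays of this experiment at 20 h, or the 6 compared arrays alone, gave 0 genes in limma, although 1086 and 1179 had an unadjusted p under 0.05. For the 96 genes the median residual SD (log2) was 0.59 on the arrays of the Nanog experiment and 0.45 on the others, against 0.46 and 0.47 for all tested genes. Single arrays also mattered. The 42-array fit called 52 genes without Nanog morpholino replicate 1, 61 without control replicate 1 and 54 without control replicate 2. Replacing the pseudocount of 16 by 1 left 35 genes, and 64 gave 165.

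Because of this, the genes that kept their call without each of the 6 arrays in turn are described first. There were 22, 13 lower and 9 higher, selected after their values were seen, and 11 of them also passed with the 18 arrays of the Nanog experiment alone. Of the 12 among them with several probe sets, 5 still passed when these were averaged (4930447F24Rik, Cacna1d, Ccdc43, Dclre1a and Runx3), 5 did not (Rrm1, Ewsr1, Eda, Exoc5 and Dync1li2) and 2 fell below the filter (Ano3 and Rit2). Their order below follows what each gene is known to do, and no theme was tested.

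Among the 13 that fell were genes of DNA synthesis and repair. Rrm1, the large subunit of ribonucleotide reductase, which makes deoxynucleotides, read 3272, 4750 and 3032 in control embryos and 1091, 689 and 1543 with the Nanog morpholino (log2 -1.76, SE 0.32, limma adjusted p = 0.00456). Its second bright probe set was lower as well, with a mean of 5529 against 2473 and non-overlapping arrays, but a dim one differed by 1.30 the other way (means 5.78 and 85.1), and the mean of all 3 did not pass (log2 -0.63, adjusted p = 0.572). Mad2l2, a subunit of translesion polymerase zeta and of the shieldin complex, read 4314, 3661 and 4782 against 1484, 1542 and 1283 (log2 -1.55, SE 0.23, adjusted p = 0.00108). In both genes the lowest control array was well above the highest Nanog morpholino array. Dclre1a, a nuclease of DNA crosslink repair, read 1160, 1002 and 1568 against 236, 290 and 231 (log2 -2.21, adjusted p = 0.00251), and a second probe set of moderate brightness differed by only -0.30 with overlapping arrays.

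The smallest adjusted p of the comparison belonged to Ewsr1, an RNA-binding protein of the FET family. It read 1530, 1622 and 2127 in control embryos and 250.8, 184 and 97.6 with the Nanog morpholino (log2 -3.27, SE 0.34, limma adjusted p = 9.48e-07). This value rests on 1 of its 3 probe sets: the others differed by -1.0 and by 0.29, with overlapping arrays in both, and the mean of all 3 did not pass (adjusted p = 0.0783). The same caution applies to Eda, the TNF-family ligand ectodysplasin, whose tested probe set read 2261, 1619 and 1504 against 189, 474 and 290 (log2 -2.51, adjusted p = 0.00141). Its other bright probe sets were lower by 0.36 and 0.87 with overlapping arrays, and the mean of its probe sets did not pass (0.179).

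The remaining falls included genes of signalling and of traffic inside the cell. Oxsr1, a kinase of the WNK pathway that controls cation-chloride cotransporters, read 2242, 1665 and 1531 against 342, 486 and 446 (log2 -2.05, SE 0.32, limma adjusted p = 0.00108). Exoc5, a subunit of the exocyst that tethers secretory vesicles, read 3539, 2188 and 3463 against 827, 1060 and 865 (log2 -1.70, adjusted p = 0.00694). Dync1li2, a light intermediate chain of the dynein motor, read 1788, 1277 and 862 against 302, 180 and 189 (log2 -2.44, adjusted p = 0.00221). Each control array exceeded each Nanog morpholino array in these 3 genes. Exoc5 and Dync1li2 each have a second, dimmer probe set, which differed by 0.40 and -0.42 with overlapping arrays, and neither gene passed with its probe sets averaged (log2 -0.65 and -1.43, adjusted p = 0.276 and 0.0841). Oxsr1 and Exoc5 passed with the 18 arrays of the experiment alone (0.00474 and 0.0424), whereas Dync1li2 did not (0.0772).

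The last falls of this set were Fam174c (2974, 2360 and 2895 against 400, 302 and 1082), Gstp3, a glutathione S-transferase (487, 413 and 287 against 93.3, 53.6 and 119.99), Ccdc43, 6530409C15Rik and Rhov. Rhov showed the widest of these differences, from 569, 1138 and 1337 to 12.1, 7.1 and 111.3 (log2 -4.48, SE 0.77, limma adjusted p = 0.00248). 6530409C15Rik, a RIKEN transcript, read 226, 1150 and 406 in control embryos and 10.97, 40.7 and 4.98 with the Nanog morpholino, and Ccdc43, a coiled-coil protein, 212, 280 and 571 against 29.2, 46.9 and 12.7. In uninjected embryos 6530409C15Rik was at 7.1, 6.8 and 29.2, inside the range of the Nanog morpholino arrays. None of these 5 genes passed with the 18 arrays alone (adjusted p = 0.102, 0.071, 0.0772, 0.112 and 0.0588).

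Of the 9 rises in this set, 4 also passed with the 18 arrays alone. Cacna1d, the pore-forming subunit of an L-type calcium channel, read 44.55, 154.7 and 100.03 in control embryos and 826, 1299 and 1099 with the Nanog morpholino (log2 3.34, SE 0.51, limma adjusted p = 0.00108). A second probe set of it differed by 0.35 with overlapping arrays. Chdh, the mitochondrial choline dehydrogenase, read 386, 418 and 543 against 1575, 1803 and 2106 (log2 1.99, SE 0.35, adjusted p = 0.0033), with uninjected embryos at 439, 397 and 483. The RIKEN transcript 4930447F24Rik read 22.5, 8.7 and 22.7 against 233, 392 and 311 (log2 3.27, adjusted p = 0.000989). Ano3, of the anoctamin family of membrane proteins, went from 25.03, 8.70 and 2.47 to 95.3, 63.4 and 180.1 (log2 2.18, adjusted p = 0.00167). In these 4 genes the uninjected arrays were all near the control arrays and below every Nanog morpholino array.

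The other 5 rises did not pass with the 18 arrays alone. Tmed10, a cargo receptor of the early secretory pathway, read 506, 273 and 520 against 2328, 1238 and 2514 (log2 2.17, limma adjusted p = 0.00515). Dnajc5b, of the cysteine-string protein family, read 521, 463 and 570 against 1447, 2824 and 1830 (log2 1.89, adjusted p = 0.00694). Runx3, a Runt-domain transcription factor, went from 9.51, 11.97 and 5.07 to 924, 34.4 and 283, so that its 3 Nanog morpholino arrays differed widely among themselves (log2 3.29, SE 0.56, adjusted p = 0.00221). Rit2, a Ras-like GTPase, and Stpg4 were near the floor on the control arrays as well (log2 2.65 and 2.24). There, their adjusted p were 0.102 for Tmed10, Runx3 and Rit2, 0.106 for Dnajc5b and 0.15 for Stpg4.

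**Figure D2:**
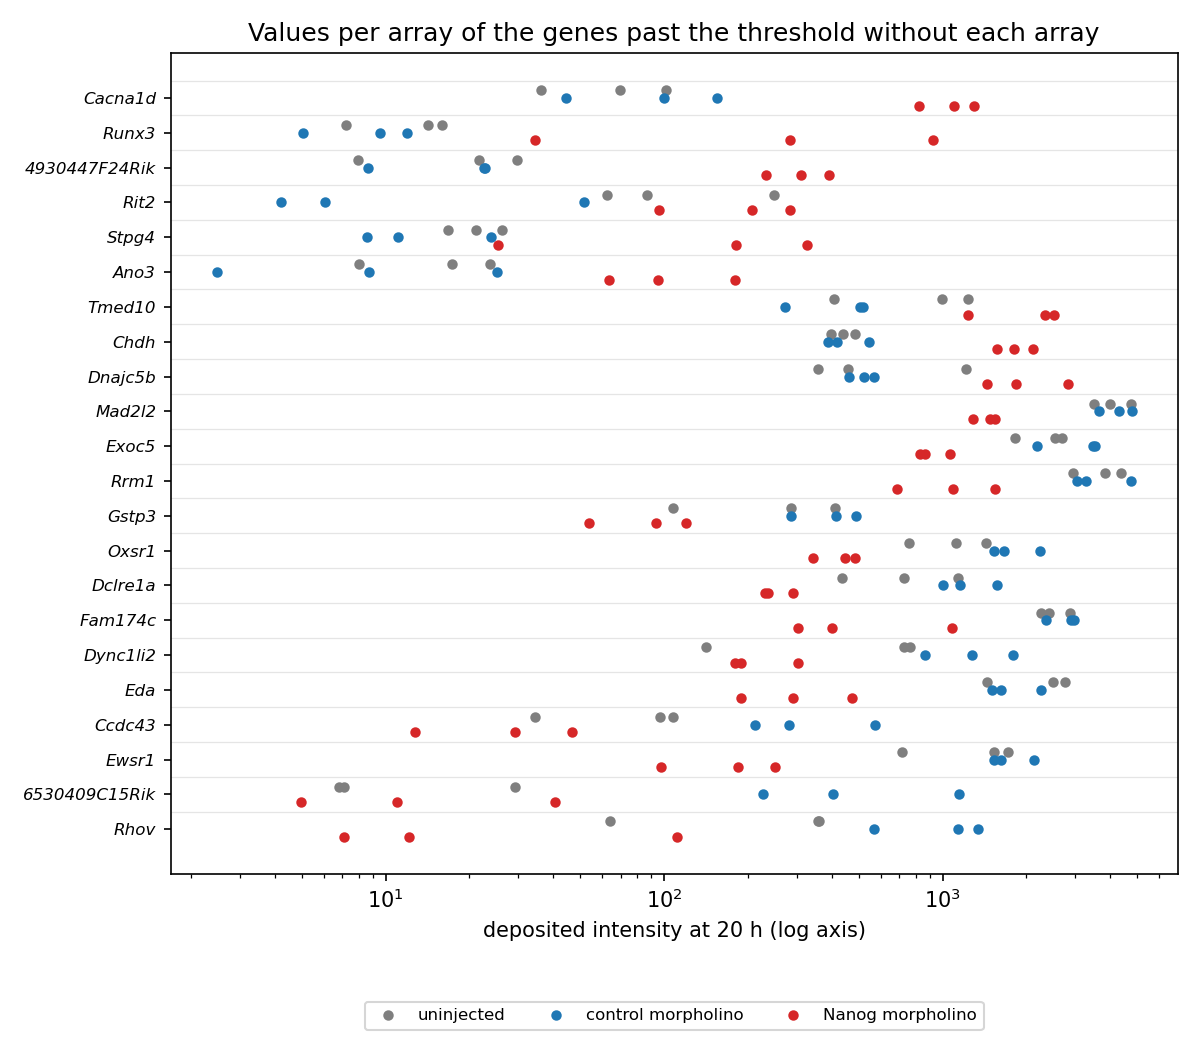
Deposited intensity at 20 h (log axis) on each array for the 22 genes that passed without each of the 6 arrays in turn, ordered by log2 change. Points are single arrays of uninjected, control morpholino and Nanog morpholino embryos. Chdh, Cacna1d, Mad2l2 and Rrm1 show uninjected arrays beside the control arrays, while for 6530409C15Rik and Dync1li2 uninjected arrays reach the Nanog morpholino range.

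Another 6 genes passed with all 42 arrays and with the 18 alone but lost their call without some array. All 6 fell, and all 6 were brightly expressed in control embryos. Mrps18c, a protein of the small mitochondrial ribosomal subunit, read 1949, 3155 and 1887 against 462, 660 and 761 (log2 -1.85, limma adjusted p = 0.0188), and was lost without control replicate 2 (0.118) or Nanog morpholino replicate 1 (0.112). Naf1, an assembly factor of H/ACA ribonucleoproteins, had a small and even shift, from 3329, 3747 and 3094 to 1670, 2084 and 1696 (log2 -0.90, SE 0.20, adjusted p = 0.0217), and did not pass without control replicate 1 (0.0646) or 2 (0.11) or Nanog morpholino replicate 1 (0.101) or 3 (0.0724). Exosc5, a subunit of the RNA exosome, read 1137, 949 and 587 against 335, 242 and 224 (log2 -1.65, adjusted p = 0.0366). It passed only without control replicate 3, and the other exclusions gave 0.186 and 0.132 (control replicates 1 and 2) and 0.0603, 0.104 and 0.116 (Nanog morpholino replicates 1 to 3).

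The 3 others were Zbtb5, a BTB zinc finger factor, Slc49a4, a lysosomal transporter, and Cdc42bpg, a Cdc42-binding kinase. Zbtb5 read 1897, 2148 and 2507 against 382, 569 and 279 (log2 -2.42, limma adjusted p = 0.0137) and was lost without control replicate 3 (0.0511) or Nanog morpholino replicate 1 (0.0545) or 3 (0.0663). Slc49a4 read 1931, 2799 and 2122 against 1297, 755 and 733 (log2 -1.32, adjusted p = 0.0179) and was lost without control replicate 2 (0.109) or Nanog morpholino replicate 2 (0.0776) or 3 (0.0826). Cdc42bpg read 2826, 2740 and 3509 against 517, 595 and 1210 (log2 -2.04, adjusted p = 0.0217). It was lost without control replicate 1 (0.0593), 2 (0.0598) or 3 (0.083) or Nanog morpholino replicate 1 (0.123) or 2 (0.0784). In all 3 genes the groups did not overlap. The 18-array fit called 8 further genes that missed the threshold in the 42-array fit, 7 lower (Ino80c, Pspc1, Ndufb7, BC002059, Mars1, Tex10 and Idh2) and 1 higher (Mrgbp), with adjusted p of 0.0544 (Pspc1) to 0.56 (Ndufb7) over all arrays.

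**Figure D3:**
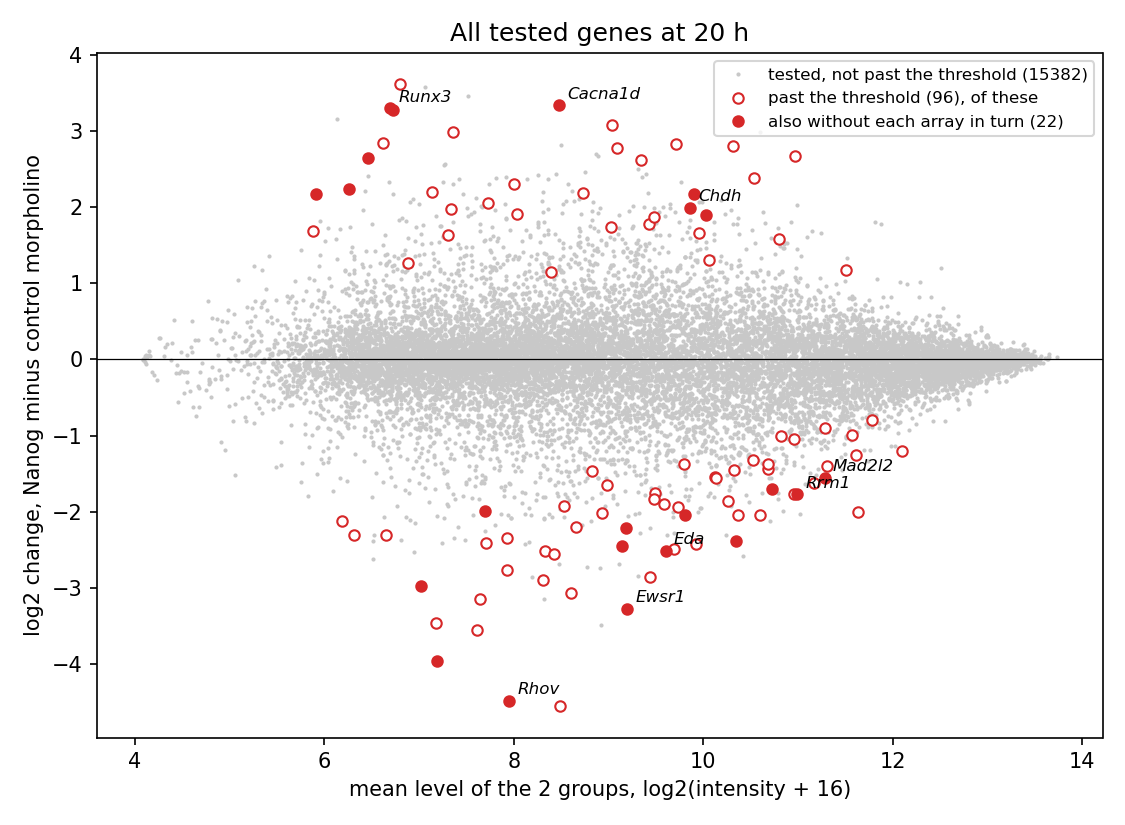
Log2 change at 20 h (Nanog minus control morpholino) against the mean level of both groups on the log2(intensity + 16) scale, for all 15478 tested genes. Open circles are genes that passed and filled circles the 22 that also passed without each array in turn. Falls are spread over moderate and high levels, and rises lie mostly at low and moderate levels.

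By size, the 12 largest falls and 12 largest rises with non-overlapping arrays included 8 of the genes above (Rhov, 6530409C15Rik, Ewsr1, Ccdc43, Cacna1d, Runx3, 4930447F24Rik and Rit2). The other 16 lost their call without at least 1 array. The widest fall was that of 1700080O16Rik, from 911, 1494 and 2441 to 29.0, 22.2 and 138.3 (log2 -4.55, SE 0.97, limma adjusted p = 0.0179), with uninjected embryos at 1008, 23.3 and 59.0, across both ranges. It was lost without control replicate 2 (0.0605) or 3 (0.08) or Nanog morpholino replicate 1 (0.0811) or 2 (0.0744). Erv3, an endogenous retroviral gene, read 276, 301 and 893 against 18.9, 15.6 and 41.9 (log2 -3.46, adjusted p = 0.0066) and was lost only without control replicate 3 (0.051). Cmtm4, a membrane protein of the MARVEL family, read 1757, 1307 and 1521 against 105.3, 94.8 and 684.6 (log2 -2.86, adjusted p = 0.00694) and was lost only without Nanog morpholino replicate 1 (0.0651).

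Tufm, the elongation factor of mitochondrial translation, read 906, 759 and 729 against 41.4, 101.5 and 178.7 (log2 -2.89, SE 0.67, limma adjusted p = 0.0328). It passed only without Nanog morpholino replicate 3: exclusion of control replicates 1, 2 and 3 gave 0.121, 0.0912 and 0.0757, and of Nanog morpholino replicates 1 and 2 gave 0.191 and 0.0703. Its other bright probe sets differed in the same direction by -4.08, with non-overlapping arrays, and by -1.72. Vsx1, a homeobox gene known from the retina, fell by 2.76 and was lost without control replicate 1 (0.173) or 3 (0.0675) or Nanog morpholino replicate 1 (0.0664) or 2 (0.0641). Its control arrays were uneven, at 1553, 109.8 and 612. The transcripts 4930426I24Rik (log2 -3.54), Gm15471 (log2 -3.14) and Tmem29 (log2 -3.06) completed the 12. The first lost its call without any 1 of the 6 arrays (0.0605 to 0.157). Gm15471 kept it only without Nanog morpholino replicate 2 (0.0533 to 0.0887 without the others), and Tmem29 only without Nanog morpholino replicate 1 (0.051 to 0.241).

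Among the largest rises, Siglecf, a sialic acid-binding lectin known from eosinophils, read 489, 58.0 and 507 against 1984, 1840 and 1842 (log2 2.82, SE 0.52, limma adjusted p = 0.00549) and was lost only without control replicate 2 (0.0605). Trim35, of the tripartite motif ubiquitin ligases, read 281, 145 and 148 against 1020, 1161 and 2045 (log2 2.78, adjusted p = 0.00943). It was lost without control replicate 2 (0.0533) or Nanog morpholino replicate 3 (0.0522). Jakmip1, a microtubule-binding protein, read 217, 198 and 88.0 against 1840, 1568 and 1041 (log2 3.07, adjusted p = 0.00943) and was lost without control replicate 3 (0.0614) or Nanog morpholino replicate 1 (0.0545). In both of these genes 2 of the 3 uninjected arrays read above 1000, as the Nanog morpholino arrays did.

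Ahnak, a giant scaffold protein, read 1158, 475 and 87.7 against 2933, 2916 and 2351 (log2 2.81, limma adjusted p = 0.0217), and was lost without control replicate 3 (0.192) or Nanog morpholino replicate 1 (0.0789) or 2 (0.0595). Tmem232, a membrane protein gene, had the brightest rise, from 1505, 716 and 323 to 4721, 5437 and 3759 (log2 2.67, adjusted p = 0.0409), and also differed from uninjected embryos at 296, 75.5 and 340.5 (log2 4.41, adjusted p = 0.0004). It kept its call against the control only without control replicate 1 (0.0707 to 0.225 without the others). 1700110I01Rik (log2 3.61, adjusted p = 0.0165) was lost without control replicate 2 (0.0798) or Nanog morpholino replicate 2 (0.0524) or 3 (0.0611). Gm38440 (log2 2.99) and Mapk12, the gamma isoform of p38 kinase (log2 2.84), were lost without control replicate 2 (0.121 and 0.0972) or 3 (0.0992 and 0.105) or Nanog morpholino replicate 1 (0.123 and 0.0503) or 2 (0.118 and 0.178).

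A gene's other probe sets give a further look at each change. Of the 96 genes, 45 have a second probe set, and in 28 at least 1 of these read above 197 in either group. Those 28 genes have 44 such probe sets: 35 differed in the same direction and 9 in the opposite one. The arrays did not overlap in 14 of the 35 and in 0 of the 9, against 13.6% of all tested genes. Probe sets of a gene read the same RNA on the same arrays, so they are no independent replicates. Among dimmer probe sets with non-overlapping arrays, that of Ltn1 went the opposite way (means 5.34 in control and 32.5 in Nanog morpholino embryos). Those of Tmem29 and Wdfy1 went the same way. In Rrm1, Tufm and Ndufc2 all probe sets above 197 differed in the same direction, whereas in Ewsr1 and Clpx 1 of them differed in the opposite one (0.29 and 0.27). With the mean of all probe sets of a gene, dim ones included, 120 genes passed, and they held 66 of the 96. Of the 45 genes with several probe sets, 15 then passed, 25 did not and 5 fell below the filter on low values.

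Uninjected embryos of the same experiment and time gave a second reference that shares the Nanog morpholino arrays. Against them, 70 genes passed (0.452%), and 34 of the 96 were among these, 22 lower and 12 higher, each in the same direction. The count was 117 without uninjected replicate 1 and 106 without uninjected replicate 2. The 3 uninjected arrays lay above all Nanog morpholino arrays in 38 of the 60 falls and below all of them in 22 of the 36 rises. Over all tested genes, Nanog morpholino and uninjected arrays did not overlap in 11.9%. Of the 22 genes that held without each array, 12 also passed against uninjected embryos: the falls of Ewsr1, Eda, Mad2l2, Rrm1 and Fam174c and the rises of Cacna1d, Runx3, 4930447F24Rik, Chdh, Ano3, Dnajc5b and Stpg4. Of the 62 genes that did not pass against uninjected embryos, the uninjected arrays overlapped the Nanog morpholino arrays in 34 and did not in 28. Acy1, an aminoacylase, was one of those that overlapped, with control arrays at 1007, 670 and 524, Nanog morpholino arrays at 59.6, 118.5 and 185.7 and uninjected arrays at 150, 125 and 634. Between control morpholino and uninjected embryos, 14 of all tested genes passed (0.0905%), and 3 of these were among the 96: 6530409C15Rik, Mamstr and Wdfy1, higher in control embryos by 4.10, 2.41 and 2.68 on the log2 scale (limma adjusted p = 0.018, 0.0225 and 0.0237). Both comparisons use the same control arrays.

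Gene lists of the embryo's known programmes were then read for direction, without a test of the list. They held 781 tested genes, of which 4 passed (0.512%, against 0.620% of all tested genes), and in 23 of the 26 lists 0 members passed. In a bulk sample, fewer cells of a type and less RNA per cell cannot be told apart. The 4 genes were Cdh1, Rpl39l, Rps4l and Ndufc2. Cdh1, E-cadherin, the adhesion molecule of compaction, was in the trophectoderm list and read 2662, 810 and 2615 in control embryos and 4810, 3240 and 4233 with the Nanog morpholino (log2 1.17, SE 0.28, limma adjusted p = 0.036). Uninjected arrays, at 2937, 3388 and 2973, overlapped the Nanog morpholino arrays, and the call was lost without control replicate 2 (0.315), which held the lowest value, and without Nanog morpholino replicate 1 (0.174) or 3 (0.0967). Ndufc2, a complex I subunit, read 757, 1644 and 308 against 85.2, 258 and 139 (log2 -2.20, adjusted p = 0.0291), and 2 more probe sets of it fell by 1.96 and 1.02 with non-overlapping arrays. It was lost without control replicate 1 (0.0941) or 2 (0.237) or Nanog morpholino replicate 1 (0.175) or 3 (0.0724).

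The ribosomal protein list held 1 rise and 1 fall, both of paralogues rather than of the standard subunits. Rpl39l, a paralogue known from testis, read 1620, 764 and 715 against 1997, 3586 and 3400 (log2 1.58, limma adjusted p = 0.0291), with uninjected embryos at 2163, 5240 and 1722. It was lost without control replicate 2 (0.143) or 3 (0.144) or Nanog morpholino replicate 2 (0.112) or 3 (0.0973). Rps4l fell by 2.35 (adjusted p = 0.0482) with overlapping arrays, 532, 406 and 184 against 24.97, 376 and 5.77, and was lost without control replicate 1 (0.23) or 2 (0.164) or Nanog morpholino replicate 1 (0.251) or 3 (0.336). As near copies, such paralogues can share signal with their parent genes. Of the 45 tested members of the list, 41 were below 0, with a median of -0.19, against 52.4% of all tested genes below 0 and a median of -0.02. The brightest members moved little, such as Rps28 (log2 -0.12) and Rpl4 (log2 -0.15).

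Other lists of the protein and energy machinery leaned the same way in their medians with few calls. The proteasome list had 31 of 38 members below 0 and a median of -0.21, with 0 members past the test. Nucleolar ribosome biogenesis had 43 of 52 below 0 (median -0.12), the spliceosome 34 of 42 (median -0.10), oxidative phosphorylation 51 of 73 (median -0.17), general RNA polymerase II factors 46 of 69 (median -0.10) and translation factors 38 of 58 (median -0.06). Among their members with the smallest p were Atp5a1, an ATP synthase subunit (8288, 8403 and 9278 against 6036, 4573 and 6953, limma adjusted p = 0.113), Wdr75 of the small-subunit processome (log2 -0.72, adjusted p = 0.161) and Eif5a2 (log2 -1.79, adjusted p = 0.0504). These were falls, but the lists also held rises. At an unadjusted limma p under 0.05, the proteasome had 3 members higher and 1 lower, with a highest log2 of 3.16. General RNA polymerase II factors had 2 higher and 3 lower, and translation factors 1 and 6. Nucleolar ribosome biogenesis had 0 and 5, the spliceosome 0 and 1, and oxidative phosphorylation 0 and 6. On single arrays, the median of the ribosomal protein genes relative to the control mean was -0.26, -0.18 and -0.11 with the Nanog morpholino and -0.05 to 0.04 with the control, with 1 uninjected array at -0.10. That of the proteasome was -0.27, -0.18 and -0.12 against 0.01 to 0.03, and the uninjected arrays ran from -0.17 to 0.05, into the Nanog morpholino range. In other lists single arrays were less even. Oxidative phosphorylation was at -0.17, -0.20 and 0.03 with the Nanog morpholino, with 2 uninjected arrays at -0.15 and -0.19. The spliceosome was at -0.15, -0.13 and 0.02, general RNA polymerase II factors at -0.16, -0.10 and -0.02, and translation factors at -0.10, -0.07 and -0.01. In each of these lists Nanog morpholino replicate 3 lay among or above the control arrays. Nucleolar ribosome biogenesis was at -0.15, -0.20 and -0.05, below the control arrays (-0.02 to 0.03). Its uninjected arrays, at -0.08, 0.06 and -0.06, reached into the Nanog morpholino range. The medians of the 7 lists stayed below 0 under quantile normalization, median centring and a trimmed mean, but several shrank. Under the trimmed mean, where the median of all tested genes was 0.03, translation factors were at -0.01, the spliceosome at -0.05, general RNA polymerase II factors at -0.05, nucleolar ribosome biogenesis at -0.07, and the ribosomal proteins and the proteasome at -0.14 and -0.16.

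Maternal transcripts leaned the other way. Of 37 genes of the maternal oocyte list, 32 were above 0 with a median of 0.15, and 0 passed. Nlrp4a, an oocyte member of the NLRP family, read 1020, 785 and 2099 against 4272, 3650 and 3688 (log2 1.68, SE 0.48, limma adjusted p = 0.137), with uninjected embryos at 1011, 901 and 1627. Plat, tissue plasminogen activator, differed by 1.99 (adjusted p = 0.564), and the bright Spin1 and Zbed3 by 0.01 and 0.05. The list medians on single Nanog morpholino arrays were 0.14, 0.01 and 0.20 and overlapped those of the control arrays (-0.11 to 0.08). The list of maternal mRNA storage and decay had 14 of 21 above 0 and a median of 0.05, and its bright member Cnot6l, a deadenylase subunit, read 9530, 10081 and 10085 against 11296, 10872 and 11687 (log2 0.19, adjusted p = 1.00).

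In the lists closest to Nanog, no member passed. The pluripotency list had 20 of 28 genes below 0 and a median of -0.12. On single Nanog morpholino arrays the list median was -0.197, -0.124 and 0.015, so that replicate 3 lay above the control arrays (-0.009 to 0.001). Under the trimmed mean the pluripotency list had 17 of 28 genes below 0 and a median of -0.07. Its smallest p values were those of Sox15 (538, 531 and 995 against 110, 162 and 474, limma adjusted p = 0.303) and of Nr5a2, a nuclear receptor (4787, 6260 and 4488 against 1714, 4466 and 2842, adjusted p = 0.574). The protein partners of Nanog known from embryonic stem cells had a median of -0.05, which turned to 0.00 under the trimmed mean. Fgf4, the ligand through which epiblast cells signal to primitive endoderm, read 2317, 3164 and 2287 in control embryos, 2371, 2303 and 2492 in uninjected ones and 420, 1288 and 603 with the Nanog morpholino. The groups did not overlap, but the difference did not pass (log2 -1.87, SE 0.60, adjusted p = 0.23, and 0.0711 with the 18 arrays alone). Its list, FGF and Nodal signalling, had a median of 0.11 over 28 genes.

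Lineage lists had 1 call between them, that of Cdh1. Primitive endoderm genes had 9 of 15 above 0 (median 0.17), where Gata4 read 2713, 2902 and 3009 against 3113, 2647 and 1404 and Pdgfra 132, 72.8 and 49.4 against 127, 500 and 69.1. The trophectoderm median was 0.03 over 23 genes, and that of the 2-cell-stage transient genes was -0.05 over 20 genes and 0.00 under the trimmed mean. The stress response list had a median of 0.06, p53 targets -0.07, the interferon response -0.01, which was 0.01 under quantile normalization, and the Bcl2 family -0.10. DNA methylation genes had a median of 0.07, histone modification -0.06, the cell cycle -0.06 and glycolysis -0.06, the last at 0.01 under quantile normalization. In the cell cycle list, Cdc20, an activator of the anaphase-promoting complex, read 7079, 7088 and 6254 against 3513, 5023 and 4959 without passing (log2 -0.61, limma adjusted p = 0.161).

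Markers of cells that could accompany embryos showed no member past the test. Of 15 cumulus and granulosa genes on the array, 3 read above the median on all 6 arrays, and their summed level was 1830 to 2146 in control and 1827 to 2150 in Nanog morpholino embryos. For sperm the sums were 2156 to 2274 and 2388 to 2779 with 1 of 8 genes above the median, and for blood, stroma and fibroblasts 1592 to 3202 and 1773 to 2787 with 1 of 13. No such marker was at 0, as the lowest value of the table is 0.42.

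**Figure D4:**
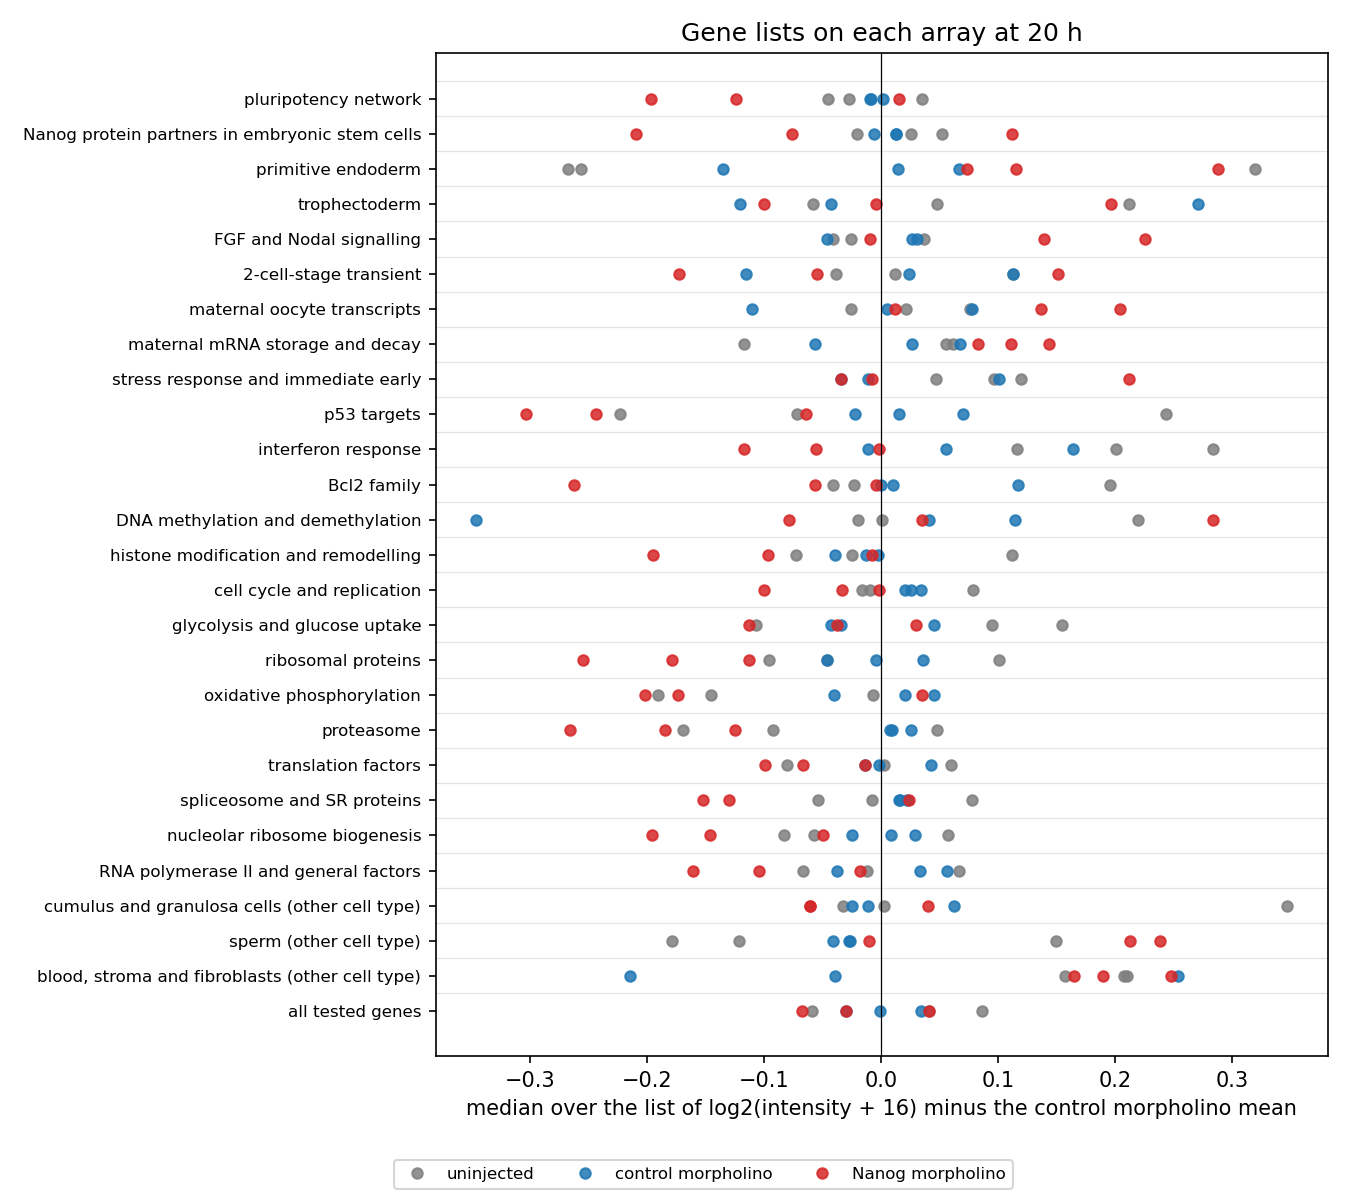
Median over each gene list of log2(intensity + 16) minus the control morpholino mean, on each array at 20 h. Points are single arrays of uninjected, control and Nanog morpholino embryos. The Nanog morpholino arrays of the ribosomal protein and proteasome lists lie between -0.27 and -0.11, left of the control arrays.

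The later time of the same experiment used other arrays and asked whether the 20 h changes were seen again. At 44 h the same test called 775 genes (5.01%), of which 533 were higher and 242 lower, and 13 of them had passed at 20 h, which is 13.5% of the 96 and 1.68% of the 775. The 44 h count fell to 421 without Nanog morpholino replicate 1 of that time and to 409 without control replicate 2. The direction was the same in 11 of the 13. Lower at both times were Rrm1 (log2 -1.76 at 20 h and -1.24 at 44 h), Tufm (-2.89 and -2.53), Gpat3, an enzyme of triglyceride synthesis (-2.00 and -1.59), Clpx, of the mitochondrial ClpXP protease (-1.21 and -0.87), Lmtk2 (-1.47 and -1.46), Slc39a1, a zinc importer (-1.01 and -0.97), and Ccdc43 (-2.98 and -1.80). Higher at both were 4930447F24Rik (3.27 and 3.87), Cyp21a1 (2.62 and 2.23), Rpl39l (1.58 and 1.71) and Fam170b (1.31 and 1.09). Their limma adjusted p at 44 h were 1.06e-05 for 4930447F24Rik and 0.00373 to 0.0231 for the others. Of all 60 falls, 49 were below 0 at 44 h, where 45.1% of tested genes were, and of the 36 rises 20 were above 0, against 54.9%.

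The calls at 20 h among these genes were not equally firm. Rrm1, Ccdc43 and 4930447F24Rik kept theirs without each array. Clpx, at 6432, 6456 and 6925 against 2399, 2671 and 3613, was lost only without Nanog morpholino replicate 1 (limma adjusted p = 0.0558), and Gpat3, at 5287, 5753 and 6454 against 710, 1430 and 2957, without control replicate 2 (0.0561) or 3 (0.0579) or Nanog morpholino replicate 1 (0.152). Fam170b was lost without control replicate 2 (0.0783) or 3 (0.0589) or Nanog morpholino replicate 2 (0.0917), and Cyp21a1 without control replicate 2 (0.147) or 3 (0.114) or Nanog morpholino replicate 2 (0.122) or 3 (0.0967). Lmtk2 was lost without control replicate 1 (0.0964) or 2 (0.195) or Nanog morpholino replicate 1 (0.113) or 2 (0.156), and Slc39a1 without control replicate 1 (0.173) or 2 (0.13) or Nanog morpholino replicate 1 (0.208) or 3 (0.0719).

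The difference between the effects at 44 h and at 20 h was itself past the test for 128 genes (0.827%), 19 of them among the 96. It was 83 without Nanog morpholino replicate 1, 71 without control replicate 1 and 81 without control replicate 3 of 20 h, and 77 or 198 without Nanog morpholino replicate 1 or 3 of 44 h. Tmed10 and Abr rose at 20 h and fell at 44 h. Tmed10 went from 2.17 to -1.39 (limma adjusted p of the difference 0.00394) and Abr from 1.77 to -1.69 (0.00394), with Abr at 165, 446 and 511 against 1205, 1346 and 1039 at 20 h. The 20 h call of Abr was lost without control replicate 1 (0.25) or Nanog morpholino replicate 1 (0.0887) or 2 (0.0886). Ewsr1, Eda, Mad2l2, Dclre1a and Zbtb5 fell at 20 h and had changes of -0.57 to 0.60 at 44 h, with a difference that passed in each (0.0043 to 0.0296). Cdh1 rose at 20 h and was at -0.62 at 44 h (adjusted p of the difference 0.0204).

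The largest changes of 44 h did not pass the test at 20 h. The 6 largest rises at 44 h were Nptx1, Tubb3, Id2, Gm26504, Ier5 and Fgd6, and their changes at 20 h were -0.17, 0.43, 1.46, 0.99, 0.72 and 0.87 with limma adjusted p of 0.827 or more. The 6 largest falls at 44 h, Niban1, Ddah1, P2ry14, 6230400D17Rik, Gata3 and Chm, had changes of -2.07 (Chm, adjusted p = 0.13) to 0.71 (Niban1) at 20 h, and none passed. The difference between the times passed in 4 of these 12 genes, Tubb3, Ier5, Fgd6 and P2ry14 (adjusted p = 0.00539 to 0.0212). Pou5f1 was at -0.70 at 44 h (adjusted p = 0.0236) and 0.16 at 20 h.

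**Figure D5:**
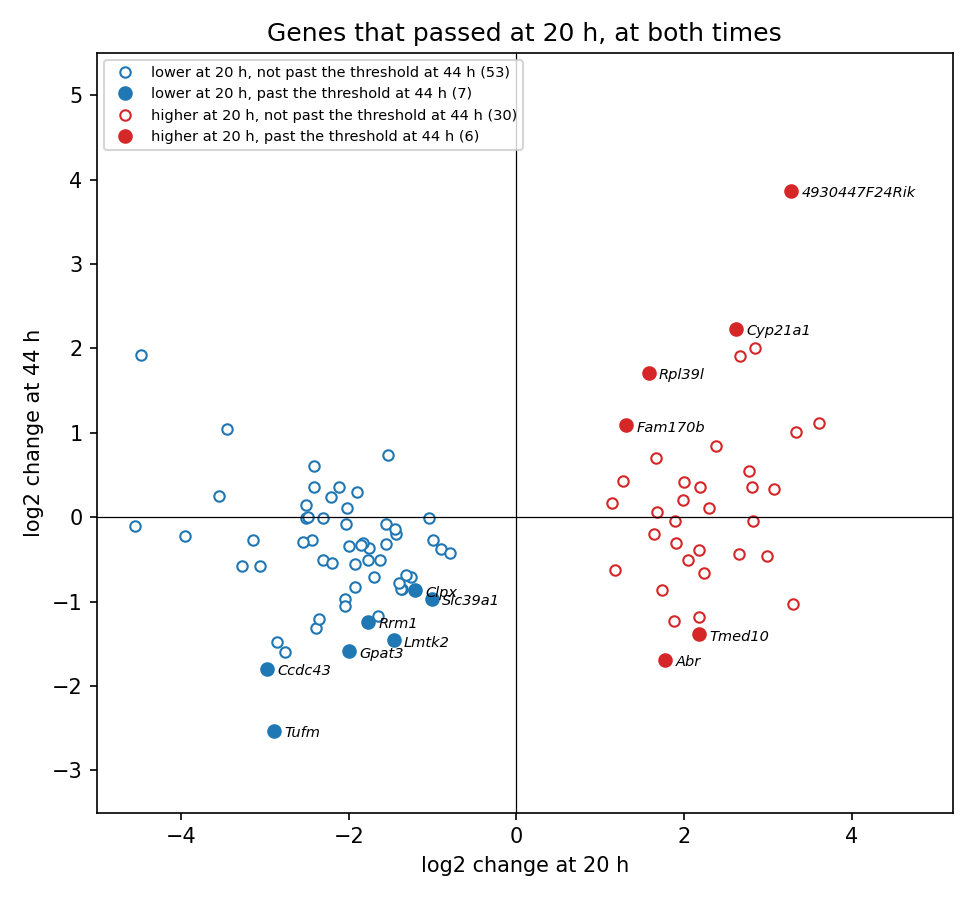
Log2 change at 44 h against that at 20 h for the 96 genes that passed at 20 h. Filled points also passed at 44 h, 7 of the genes lower and 6 of those higher at 20 h. Abr and Tmed10 lie in the quadrant of a rise at 20 h and a fall at 44 h.

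Oct4 and Sall4 morpholinos at 20 h were set beside uninjected embryos of their own experiments, with no control morpholino at that time and on arrays of a lower scale (medians 26.1 to 33.3). With the Oct4 morpholino 312 genes passed (2.02%), 285 lower and 27 higher. Of these, 9 were among the 96 (9.38% of the 96 and 2.88% of the 312). Since most calls of both comparisons were falls, a shared direction is in part built into the calls. All 9 fell in both: Ecsit, a complex I assembly and Toll signalling factor (log2 -1.37 with the Nanog and -2.39 with the Oct4 morpholino), Slc49a4 (-1.32 and -1.74), Sppl3, an intramembrane protease (-1.40 and -1.70), Clpx (-1.21 and -1.51), Hikeshi, a carrier of Hsp70 into the nucleus (-1.77 and -1.51), Urm1, a tRNA-modifying ubiquitin-like protein (-1.45 and -1.35), Vrk1, a nuclear kinase (-0.99 and -1.01), Naf1 (-0.90 and -0.78) and Slc5a6, a vitamin transporter (-0.80 and -0.76). Limma adjusted p with the Oct4 morpholino ran from 1.67e-05 (Ecsit) to 0.0476 (Hikeshi). Of the 60 falls, 41 were below 0 with the Oct4 morpholino, where 52.1% of all tested genes were. With the Sall4 morpholino 36 genes passed (0.233%), and 0 of them were among the 96. The controls and scales are unlike, and the difference between the morpholinos was not tested.

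The Nanog morpholino calls of these shared genes depended on single arrays, and several also on the choice of probe set. Sppl3, at 4337, 4768 and 2980 against 1119, 1237 and 2356, was lost without control replicate 2 (limma adjusted p = 0.0583) or Nanog morpholino replicate 1 (0.0664). Ecsit, at 1306, 1382 and 1400 against 291, 670 and 704, was lost without Nanog morpholino replicate 1 (0.258) or any control replicate (0.0863 to 0.0952). Vrk1 (4252, 4043 and 4126 against 1260, 2206 and 3185), Hikeshi and Slc5a6 were lost without any control replicate (0.0818 to 0.173) and without Nanog morpholino replicate 1 (0.323, 0.0806 and 0.228) or 2 (0.068, 0.254 and 0.0787), and Slc5a6 also without replicate 3 (0.0663). Urm1 was lost without any control replicate (0.0917 to 0.15) or Nanog morpholino replicate 1 (0.307) or 3 (0.0885). With all probe sets of a gene averaged, dim ones included, Vrk1 (log2 -0.19, limma adjusted p = 0.998) and Clpx (0.781) did not pass. Neither did Urm1 (0.384), Sppl3 (0.184), Slc49a4 (0.15) and Hikeshi (0.0841). Ecsit, Naf1 and Slc5a6 have no second probe set to compare.

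Promoters of the genes that passed were searched for TAATGG, a homeodomain core sequence of the kind Nanog binds, on both strands of the RefSeq windows from 250 bases before to 50 after the start site (GRCm38.p6). Of the 96 genes, 83 have a window, and 8 hold the motif (9.64%), against 6.23% of the 12417 tested genes with a window. Among genes that fell it was 3 of 52 (5.77%), and among genes that rose 5 of 31 (16.1%). No test of these small counts was made. The 6 matches upstream of the start are shown to let the letters be seen beside the values, 5′ to 3′ on the gene's strand, with the motif or its reverse complement CCATTA in capitals. Ano3, Abr and Tmed10 rose and Erv3, Tmem29 and Vsx1 fell.
Ano3 (chr2:110840097-110840126, minus strand): taagactccagcTAATGGatcaggcaggcg
Abr (chr11:76494613-76494642, minus strand): ggaaaaggttcaTAATGGagcctttcatcg
Tmed10 (chr12:85374892-85374921, minus strand): agtatttcaccaCCATTAaaaaataaaacg
Erv3 (chr2:131859929-131859958, minus strand): gttcttacacgaTAATGGgtcacaaggcta
Tmem29 (chrX:150441381-150441410, minus strand): gagggggcctatCCATTAttgaacctatag
Vsx1 (chr2:150689308-150689337, minus strand): cagaagagagacCCATTAcgaatgtggaac
The other two matches, in 4930447F24Rik and Tnc, lie just past the start. A match is a description of letters and not of binding.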

How the data were processed

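Per the labels' protocols, RNA was isolated with a PicoPure kit, amplified and biotin-labelled with NuGEN reagents and hybridised to Affymetrix arrays. The deposited intensity values cover 45101 probe sets on 42 arrays, on a linear scale. The sources used here do not give their summarisation and scaling, and 0 per-sample columns were left out. Probe sets were named through GEO's platform annotation: 34945 have 1 gene symbol, 932 have several, 9160 have none, and 64 control probe sets were left out. For each of 18193 genes the probe set of highest mean log2(intensity + 16) was used. A gene was tested if its mean log2 in at least 1 of the 14 groups was above that of the table's median intensity, 71.15, which left 15478. The compared groups count among these, so a dim gene can enter the test because a compared group is high. Ano3, for example, had a mean of 12.07 in control and 112.9 in Nanog morpholino embryos at 20 h. Mamstr and Gadl1 were no longer tested when 1 of the control arrays was left out. Without a filter 92 genes passed at 20 h, and 90 of them also passed with it. The pseudocount understates changes of dim genes.

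A linear model with a mean per group was fitted to all 42 arrays (limma 3.58.1, R 4.3.3, 28 residual degrees of freedom, two-sided, Benjamini-Hochberg adjustment, threshold 0.05), and repeated on the 18 arrays of the Nanog experiment (12 residual degrees of freedom). The fit was also run on simulated data, in which a gene had the same normal spread on all 42 arrays. That run does not cover a spread that differs between the experiments, so it is no check of the calls made here. Arrays were normalized no further, and other scalings, pseudocounts, filters, probe set rules, array subsets, a replicate block and leaving out each array were tried. Genes were named by rule: Nanog, Pou5f1, Sall4 and Sox2, the 12 largest rises and falls past the threshold without overlap, up to 4 members of each list by smallest p and highest control level, and the 6 largest rises and falls at 44 h. Further genes, those that held in several fits or passed at both times or with the Oct4 morpholino, and Acy1, Mamstr and Wdfy1, were chosen after their values were seen. The genes and lists were chosen with earlier results of these data known. RefSeq promoter windows are of GRCm38.p6. Figures were drawn with Python and matplotlib.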

Additional observations from a re-analysis of the deposited data

Results flagged for a closer look

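The effect of the Nanog morpholino differed between 44 h and 20 h, by limma's test of the difference with Benjamini-Hochberg adjustment, for several genes named here. The change at 44 h minus that at 20 h, on the log2 scale, was 6.40 for Rhov (adjusted p = 0.00416), 4.50 for Erv3 (0.0135), 3.02 for Zbtb5 (0.0296), 2.69 for Ewsr1 (0.0043), 2.50 for Eda (0.0241), 2.45 for Dclre1a (0.0212) and 1.47 for Mad2l2 (0.0241), all of which fell at 20 h. It was -4.32 for Runx3 (0.00523), -3.09 for Rit2 (0.0214), -2.56 for Ano3 (0.00971) and -1.79 for Cdh1 (0.0204), which rose at 20 h. Since these genes were named for their change at 20 h, a smaller change at the other time is in part built into the choice. For genes named for their size at 44 h, the difference was 4.41 for Tubb3 (0.021), 3.74 for Ier5 (0.00539), 3.39 for Fgd6 (0.0212) and -4.40 for P2ry14 (0.00546).

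A single value stood out in a probe set without a gene symbol, which entered no comparison: 133546 on Nanog morpholino replicate 1 at 20 h, against 98.58 and 86.69 on its replicates and 67.63 to 172.93 on the other arrays of the Nanog experiment. The next highest value of the whole table was 19970.4.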

How the results depend on the processing

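At 20 h against the control, the count of 96 genes was 82 to 138 under the other scalings, filters, probe set rule, array weights and variance trend. These counts do not hold the same genes throughout: averaging the probe sets gave 120 genes, of which 66 were among the 96. Pseudocounts of 1 and 64 gave 35 and 165 genes against the control, 35 and 207 against uninjected embryos, 441 and 1265 at 44 h, and 38 and 300 for the difference between times. The 18 arrays alone gave 25, 22, 475 and 18 genes. The 9 arrays of 20 h gave 0 against the control and 7 against uninjected embryos, and the 6 compared arrays 0. Leaving out single arrays gave 52 to 106 genes against the control, 64 to 117 against uninjected embryos, 409 to 973 at 44 h and 71 to 198 for the difference. Of the list genes, 4 passed, 1 with a pseudocount of 1, 8 with 64, 7 with probe sets averaged, 1 with the 18 arrays, 0 with the 9 or 6 arrays, 8 with array weights, 1 with the replicate block, and 0 to 6 without single arrays.

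Replicates of the groups share numbers, but same-numbered arrays deviated together only weakly (correlations 0.03, 0.14 and 0.04), and 2 of 3 correlated best with their own number. Whether same-numbered arrays share more than a number cannot be told from these 3 values. The replicate block gave 71 genes at 20 h against the control, 74 against uninjected embryos, 694 at 44 h and 99 for the difference.

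Of the 96 genes, 7 passed in every setting other than the 6- and 9-array fits and single-array exclusions, and 21 if the 18-array fit is also set aside. The 21 are counted over the settings in which a gene was tested. Some of them, such as Mapk12 and Runx3, fell below the filter in at least 1 setting. No named gene changed direction with a call. Of 109 named genes that did not pass, 14 passed in at least 1 alternative. Changes of dim genes, most of the rises, lie where the pseudocount acts most.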
